A study of Mus musculus with 6 samples.

Results

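Cxcl12 is a secreted chemokine, and Cxcr4 and Ackr3 are the receptors that bind it. Their transcripts were read in mouse skin keratinocytes that were sorted by fluorescence. The donor mice carry K15-EGFP, a transgene whose keratin 15 promoter drives green fluorescent protein in the bulge, the stem cell niche of the hair follicle. The 3 genes were chosen by their known ligand-receptor relation together with earlier results from these same arrays, in which Ackr3 stood among the genes with the largest fall, so their differences between the groups are given as a description without a test. All probe sets annotated to the 3 symbols were taken, which gave 5 of 12422 probe sets: 3 for Cxcl12, 1 for Ackr3 and 1 for Cxcr4. The 6 arrays fall into 3 of EGFP-high and 3 of EGFP-negative cells. Both came from the K15-EGFP transgenic mice, and the labels call both gates positive for α6 integrin. The labels give no age, sex, strain background or hair cycle stage, and do not say whether equal replicate numbers mark 1 animal or 1 sort. A group is bulk RNA of a sorted gate, so fewer cells of a type and less RNA per cell cannot be told apart.

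Cxcr4 is a G protein-coupled receptor that turns Cxcl12 binding into directed migration and retention of cells. Ackr3 is an atypical receptor of the same family, which recruits arrestin, does not signal through the usual G protein route, and removes Cxcl12 from the surroundings. In skin, Cxcl12 is best known from dermal fibroblasts and endothelium, and Cxcr4 from leukocytes, melanocyte precursors and some keratinocytes.

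The sort was read from its own genes first. Cd34, which encodes a surface protein used to sort bulge cells in mice, averaged 1456 ± 120 (SD, n = 3) on the EGFP-high and 34.9 ± 5.77 on the EGFP-negative arrays. Itga6, which encodes the α6 integrin, was measured at 492 ± 90.0 on the EGFP-high and 1199.8 ± 162 on the EGFP-negative arrays. It was 2.44 times as high in EGFP-negative cells, without overlap, so the gates did not match in this transcript. The probe set of Krt15, the gene whose promoter drives EGFP, was at the level of the controls on all 6 arrays (1.7 to 7.4), so the array gives no check through Krt15 itself. The basal keratinocyte keratin Krt14 was at that level too (6.8 to 22.2), and Krt5 exceeded it on EGFP-high replicate 2 alone (48.9). Other basal keratinocyte genes exceeded it on all 6 arrays, namely Col17a1 (6527.3 to 8601.8), Itgb4 (950.6 to 2007.9) and Trp63 (1021.5 to 1672.3). The 19 probe sets for bacterial and yeast genes served as that control level, with a 95th percentile between 25.5 and 42.25 over the arrays. The ratio of the 3′ to the 5′ actin probe set, a sign of RNA integrity, was 1.42, 2.03 and 1.51 on EGFP-high replicates 1, 2 and 3, and 1.26, 1.59 and 1.41 on EGFP-negative replicates 1, 2 and 3. Its part in the differences below was not tested.

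The ligand was higher and the scavenging receptor lower in the EGFP-high cells, while the signalling receptor was read at the control level. The upstream sequences of the ligand and of the scavenging receptor are shown here because these are the genes that stood apart in opposite directions. Each is the 250 bases before the annotated start in RefSeq on build GRCm38.p6, on the plus strand, at chr6:117168285-117168534 for Cxcl12 and chr1:90203730-90203979 for Ackr3. Capitals mark the GC box GGGCGG on either strand, and TATAAA on the gene's own strand.
Cxcl12: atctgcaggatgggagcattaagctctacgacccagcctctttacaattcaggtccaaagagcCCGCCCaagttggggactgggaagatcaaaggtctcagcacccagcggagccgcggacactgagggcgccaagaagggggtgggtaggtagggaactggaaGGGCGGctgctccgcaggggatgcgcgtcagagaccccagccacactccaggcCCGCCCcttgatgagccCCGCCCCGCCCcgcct
Ackr3: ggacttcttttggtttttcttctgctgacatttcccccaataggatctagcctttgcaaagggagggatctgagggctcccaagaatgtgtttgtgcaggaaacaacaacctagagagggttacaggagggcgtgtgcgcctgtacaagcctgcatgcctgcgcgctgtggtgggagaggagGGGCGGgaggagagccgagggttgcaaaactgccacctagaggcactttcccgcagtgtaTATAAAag

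The Cxcl12 stretch held 5 matches to the GC box, the last 2 of which overlap each other, and 0 matches to TATAAA. The Ackr3 stretch held 1 GC box, which begins 68 bases before the start, and 1 TATAAA, which begins 8 bases before it. Among 32851 upstream stretches of the same length, 32.7% held GGGCGG on either strand and 7.59% held TATAAA. Cxcr4, not printed, had 3 GC boxes and 1 TATAAA. The core of the hypoxia response element was searched on both strands as ACGTG and as GCGTG, which 16.6% and 28.2% of the stretches hold. ACGTG was in none of these 3 stretches, and GCGTG occurred 1 time each in Ackr3 and Cxcr4 and 0 times in Cxcl12, with no overlap with the other motifs. These are matches of letters in a window. The arrays measured no binding there.

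For Cxcl12 the probe set 100112_at read 151.9, 228.3 and 167.8 on EGFP-high replicates 1, 2 and 3, and 45.6, 48.7 and 73.6 on EGFP-negative replicates 1, 2 and 3. All 3 EGFP-high arrays lay above all 3 EGFP-negative arrays. The means were 183 ± 40.3 and 56.0 ± 15.3 (SD, n = 3 each), a ratio of 3.26. The values were then taken to log2(value + 19.3), where 19.3 is a pseudocount that damps noise near the background and makes folds of low genes smaller. On that scale 100112_at differed by 1.42 (SE 0.22), taken as EGFP-high less EGFP-negative, as for every difference below.

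The second Cxcl12 probe set, 160511_at, read 119.1, 212.2 and 273.7 on EGFP-high replicates 1, 2 and 3 and 33.6, 49 and 32.7 on EGFP-negative replicates 1, 2 and 3. Again the groups did not overlap. The means were 202 ± 77.8 and 38.4 ± 9.16 (SD, n = 3 each), a ratio of 5.25 and a log2 difference of 1.88 (SE 0.28), which was 1.23 with a pseudocount 4 times as large. In EGFP-negative cells it exceeded the control 95th percentile on 2 of 3 arrays, so its size rests on a low group near the controls. The largest EGFP-high value fell on replicate 2 for 100112_at and on replicate 3 for 160511_at, so the probe sets did not rank the EGFP-high arrays alike.

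The third Cxcl12 probe set, 162234_f_at, carries a suffix for probes that may also match related transcripts. It read 66.6, 23.7 and 55.2 on EGFP-high replicates 1, 2 and 3, and 27.2, 7.1 and 9.2 on EGFP-negative replicates 1, 2 and 3. These groups overlap, because EGFP-high replicate 2 lay under EGFP-negative replicate 1. All 3 EGFP-negative values and that of EGFP-high replicate 2 did not exceed the control 95th percentile. The log2 difference was 0.99 (SE 0.33), or 0.45 with a pseudocount 4 times as large, from means of 48.5 ± 22.2 and 14.5 ± 11.05 (SD, n = 3 each).

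Ackr3, the scavenging receptor, went the other way. Its only probe set, 93430_at, read 103.2, 45 and 105.9 on EGFP-high replicates 1, 2 and 3, and 359.4, 302.3 and 738.8 on EGFP-negative replicates 1, 2 and 3. The lowest EGFP-negative array was well above the highest EGFP-high array, and all 6 values exceeded the control 95th percentile of their own array. The means were 84.7 ± 34.4 and 467 ± 237 (SD, n = 3 each), so the level was 5.51 times as high in EGFP-negative cells, with a log2 difference of -2.18 (SE 0.36). A filter on level kept 7453 probe sets, the brightest by mean over the 6 arrays (above the 40th percentile or about 44.5). Among these Ackr3 had the 10th lowest log2 difference, and the Cxcl12 probe sets 160511_at and 100112_at the 60th and 113th highest. Nothing is read from these ranks, because the genes were chosen with this contrast in view. The EGFP-negative mean of 160511_at, 38.4, lay under the filter, so this probe set passed only through its EGFP-high values. EGFP-negative replicate 3 was the brightest array for Ackr3, and without it the log2 difference was -1.81.

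Cxcr4, the signalling receptor, was read by 102794_at at 17.5, 30.5 and 12.8 on EGFP-high replicates 1, 2 and 3 and at 12.1, 3.6 and 4.2 on EGFP-negative replicates 1, 2 and 3. None of the 6 values exceeded the control 95th percentile of its array. The values of the groups do not overlap, with a log2 difference of 0.60 (SE 0.21) that ran from 0.21 with a pseudocount 4 times as large to 1.14 with one 0.25 times as large, but the probe set was under the level filter and its levels cannot be told apart from those of the controls. A low reading of a probe set does not show that the transcript was absent.

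**Figure D1:**
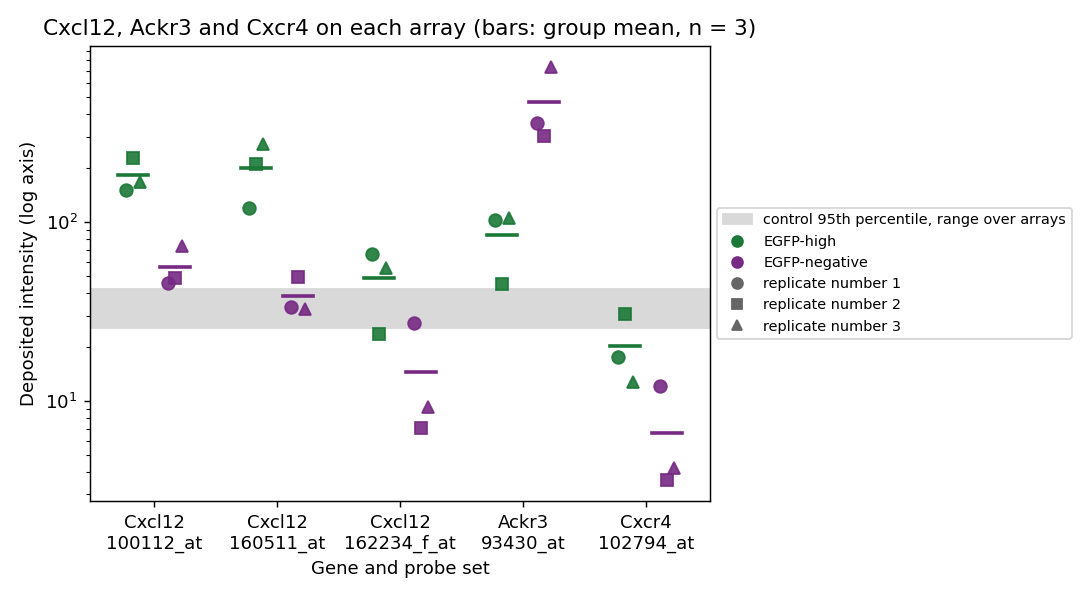
Deposited intensity (log axis) of the 5 probe sets on each array, with EGFP-high in green, EGFP-negative in purple, a symbol for each replicate number, a bar at each group mean (n = 3) and a grey band for the range of the control 95th percentile over arrays (25.5 to 42.25). The first 2 Cxcl12 probe sets are higher and Ackr3 is lower in EGFP-high cells, and no Cxcr4 value exceeds the percentile of its own array.

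In all, 4 of the 5 probe sets had groups that did not overlap, 3 higher and 1 lower in EGFP-high. Over all 12422 probe sets 18.4% did so in either direction. Because the genes were chosen with this contrast in view, nothing is read from that count. Within equal replicate numbers, the difference of 100112_at was 1.40, 1.86 and 1.01 on the log2 scale for numbers 1, 2 and 3. For 160511_at it was 1.39, 1.76 and 2.49. For Ackr3 it was -1.63, -2.32 and -2.60. All 5 probe sets kept 1 direction in the 3 pairs. For the 4 whose groups do not overlap, any pairing of the arrays would give this, so nothing is read from it. Cxcr4 ranged from 0.23 to 1.12.

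**Figure D2:**
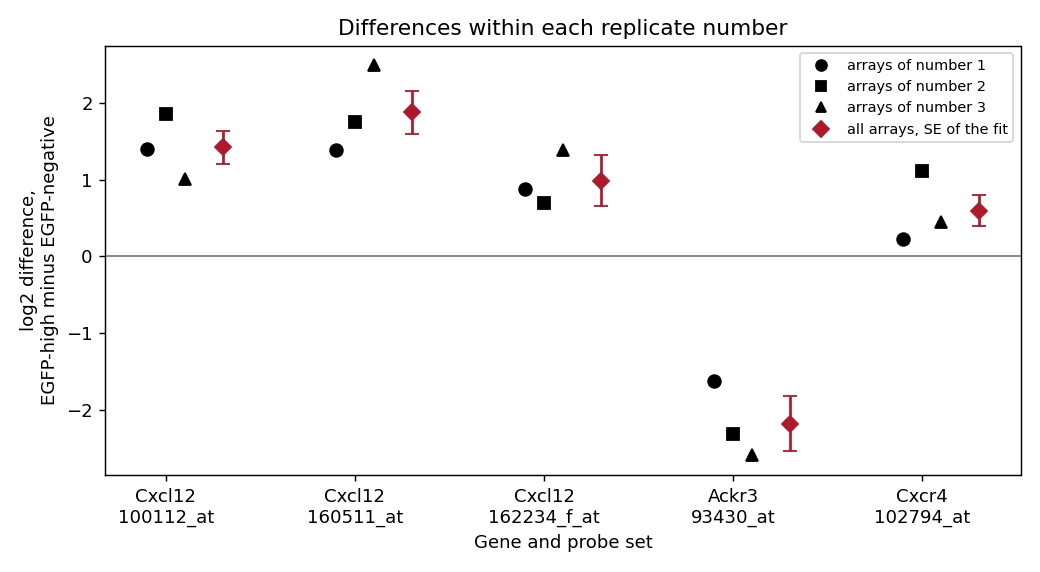
log2 difference, EGFP-high minus EGFP-negative, of each probe set within replicate numbers 1, 2 and 3 (black) and over all arrays with the standard error of the fit (red). Ackr3 lies between -2.60 and -1.63 and the first 2 Cxcl12 probe sets between 1.01 and 2.49, while Cxcr4 lies between 0.23 and 1.12.

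The surrounding pathway was described from 5 lists of 162 genes, of which 127 were on the array and 79 passed the level filter. Each gene was tested with limma across all probe sets that passed the filter, with Benjamini-Hochberg adjustment, and a gene passed at an adjusted p under 0.05. In the lists 2 of 79 genes (2.53%) rose and 2 (2.53%) fell in this fit, which does not pair the replicate numbers. Among all 5628 named genes tested 3.06% rose and 2.27% fell, so at this threshold the shares in the lists were near the background. At an unadjusted p under 0.05, 8.71% of the named genes were higher and 9.06% lower. The nearness does not carry over to that threshold, where 7 of 26 tested extracellular partners were higher and 3 lower. The counts of each list at it are given below.

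Among the other chemokine ligands 0 of 7 tested genes passed in either direction by limma, and 1 was higher at an unadjusted p under 0.05, with a median log2 difference of 0.24 against -0.0017 over all named genes. That gene was Cxcl14, a chemokine made by epithelia and the brightest ligand of the list. It read 2333, 5207 and 2764 on EGFP-high replicates 1, 2 and 3 and 869, 1909 and 783 on EGFP-negative replicates 1, 2 and 3. The groups did not overlap, and replicate 2 was the highest array in each group. The log2 difference was 1.55 (SE 0.38, limma adjusted p = 0.0533), which missed the threshold. The differences within numbers were 1.41, 1.44 and 1.79, and with the replicate number as a block Cxcl14 passed (limma adjusted p = 0.000248, where the 16 alternatives ranged from 0.000248 to 0.161). The alarm chemokine Cxcl1 read 56.9 to 161.6 on the EGFP-high and 31.2 to 325.4 on the EGFP-negative arrays (limma adjusted p = 0.911), named after its values were seen. Of the 24 ligands on the array, 10 did not exceed the control 95th percentile on any array.

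Among the other chemokine receptors 0 of 5 tested genes passed by limma, with a median log2 difference of -0.02. At an unadjusted p under 0.05, 0 were higher and 1 was lower, the scavenging receptor Ackr2 (log2 -0.75, SE 0.32, limma adjusted p = 0.264). Ackr4, another scavenging receptor and the brightest of the list, read 346.2, 400 and 186.7 on EGFP-high replicates 1, 2 and 3 and 393.5, 537.1 and 306.9 on EGFP-negative replicates 1, 2 and 3. Its groups overlap (log2 -0.42, SE 0.29, limma adjusted p = 0.547). Cxcr3, a receptor that shares the ligand Cxcl11 with Ackr3, was under the level filter at 8.9 to 58.4 over the 6 arrays.

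Of 26 tested extracellular partners (proteases that cut Cxcl12, heparan sulfate proteoglycans and their enzymes, and other ligands or co-receptors), 1 rose and 1 fell, with a median log2 difference of 0.19. At an unadjusted p under 0.05, 7 were higher and 3 lower, where 8.71% of all named genes were higher and 9.06% lower. Those higher were Ramp1, Ramp2, Ramp3, Agrn, Hspg2, Mmp14 and Fn1, and those lower were Gpc1, Gpc3 and Cd44. Ramp1, an accessory protein of the receptor Calcrl, rose from 107 ± 15.4 to 229 ± 21.3 (SD, n = 3 each; log2 0.99, SE 0.17, limma adjusted p = 0.00988). Ramp2 (log2 1.03, SE 0.32) and Ramp3 (log2 0.54, SE 0.20) were also higher without overlap but did not pass (limma adjusted p = 0.126 and 0.203). The EGFP-negative values of Ramp2 did not exceed the control 95th percentile. Calcrl with Ramp proteins binds CGRP and adrenomedullin, and Ackr3 also takes up adrenomedullin. Calcrl itself was at the control level on all 6 arrays (0.8 to 13.7), and Adm, the gene of adrenomedullin, exceeded it on 1 array, EGFP-negative replicate 3 (90.9). Gpc1, a heparan sulfate proteoglycan of the cell surface, fell from 501 ± 90.4 to 253 ± 31.0 (log2 -0.92, SE 0.18, limma adjusted p = 0.0216). The call of Gpc1 was lost without EGFP-high replicate 2, EGFP-high replicate 3, EGFP-negative replicate 1 or EGFP-negative replicate 2, and without both arrays of number 1 (limma adjusted p up to 0.0905), and that of Ramp1 without EGFP-high replicate 3 (0.0522). Dpp4, the protease that trims the amino terminus of Cxcl12, read 44.6 to 94.2 on the EGFP-high and 48.2 to 82.8 on the EGFP-negative arrays (limma adjusted p = 0.961), named after its values were seen. With the block Agrn, a proteoglycan of basement membranes, also passed (log2 0.66, limma adjusted p = 0.0272).

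Of 31 tested genes of signalling inside the cell, 1 rose and 1 fell, the same count at an unadjusted p under 0.05, with a median of 0.04. Gnai1, an inhibitory G protein α subunit of the class that couples to Cxcr4, read 455.1, 497.8 and 537.4 on EGFP-high replicates 1, 2 and 3 and 1072.4, 1133.4 and 1207.2 on EGFP-negative replicates 1, 2 and 3. The spread within each group was small beside the gap (log2 -1.17, SE 0.15, limma adjusted p = 0.00223), and its other probe set gave a log2 difference of -1.33 (limma adjusted p = 0.00292). The related subunits Gnai2 and Gnai3 had log2 differences of -0.20 and 0.27 and did not pass (limma adjusted p = 0.702 and 0.732), and the difference between the subunits was not tested. Pik3r1, the regulatory subunit of phosphatidylinositol 3-kinase, read 308.2, 258.8 and 441.8 against 129.6, 97.1 and 136.5 in replicates 1, 2 and 3 (log2 1.32, SE 0.22, limma adjusted p = 0.00902). Arrb1, an arrestin that Ackr3 can recruit, read 86.4 to 97.1 in EGFP-high and 77.6 to 120.7 in EGFP-negative cells (limma adjusted p = 0.96), named after its values were seen.

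Of 10 tested transcriptional regulators 0 passed by limma, with 2 higher and 1 lower at an unadjusted p under 0.05 and a median of 0.06. Those higher were Runx1, a factor of follicle stem cell activation, and Ctnnb1, which encodes β-catenin, and the one lower was Hif1a, the hypoxia-induced factor known to raise Cxcl12 and Cxcr4 in other cells. Runx1 had the largest of these differences (log2 1.71, SE 0.43, limma adjusted p = 0.0589). Hif1a averaged 1336 on the EGFP-high and 1830 on the EGFP-negative arrays (log2 -0.45, SE 0.14, limma adjusted p = 0.126), on a probe set that may share signal with related transcripts. With the replicate block all 3 passed (limma adjusted p = 0.00665 for Runx1, 0.0225 for Ctnnb1 and 0.0375 for Hif1a). The Runx1 value ranged from 0.00665 to 0.224 over 16 alternatives.

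**Figure D3:**
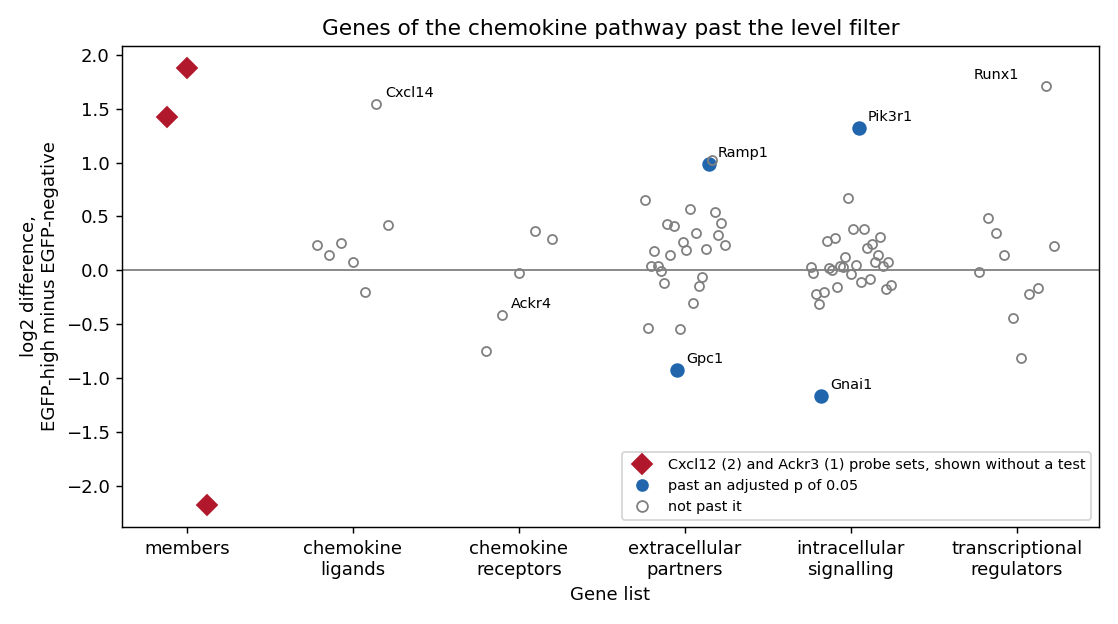
log2 difference, EGFP-high minus EGFP-negative, of the 3 Cxcl12 and Ackr3 probe sets past the level filter (red diamonds, no test) and of the tested genes of the 5 pathway lists (circles, filled in blue where limma's adjusted p was under 0.05). Of 79 list genes 4 are filled, Ramp1 and Pik3r1 above 0 and Gpc1 and Gnai1 below it.

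The genes whose profile over the 6 arrays lay nearest to each probe set were found by the root mean square distance between log2 values centred on each gene's mean, a measure in log2 units that counts both the direction and the size of a change. For Ackr3 the nearest were Bmp4, a bone morphogenetic protein (0.28), Ckap2, a spindle protein of dividing cells (0.34), Phldb2 (0.35), Cks2, a subunit of cyclin-dependent kinases (0.43), and the forkhead factor Foxq1 (0.43). This Bmp4 probe set had a log2 difference of -2.45 and another one of -0.76. On the former the EGFP-high arrays read 13.9 to 51 and the EGFP-negative arrays 159.9 to 440.2, with EGFP-negative replicate 3 highest, as for Ackr3. For 100112_at the nearest were the ubiquitin ligase Wwp2 (0.13), the kinase Dapk2 (0.18), the nucleoside transporter Slc29a1 (0.18), the surface glycoprotein Cd200 (0.20) and Cbx6 (0.21). For 160511_at they were C1qtnf12 (0.19), the profilin Pfn2 (0.19), the homeobox factor Pbx3 (0.20), Zfp275 (0.21) and the adhesion molecule Cadm1 (0.22). The nearest genes of the 2 Cxcl12 probe sets had 0 in common, and the distance between these probe sets was 0.44. Each of these nearest probe sets also had groups that did not overlap, where 18.4% of all probe sets did so. They were chosen for nearness to profiles that separate the groups, so nothing is read from this.

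Other skin cells are known to make these transcripts, so their markers were read on the same arrays. For the cells best known for Cxcl12, the summed intensity of 7 fibroblast markers was 1017 to 1348 in EGFP-high and 1057 to 1207 in EGFP-negative cells, and that of 7 endothelial markers 137 to 225 and 110 to 176, so both overlapped between the groups. The endothelial markers Cdh5, Tek, Tie1 and Vwf did not exceed the control level on any array, nor did the fibroblast markers Col3a1 and Dpt. The brightest fibroblast marker, Col1a2, which makes up most of that sum, read 565.3 to 870.8 and 695.4 to 736.8, the brightest endothelial marker, Pecam1, 69.5 to 92.1 and 52.7 to 109, and 0 of the 5 tested markers of these lists passed (limma; 0 at an unadjusted p under 0.05). Among these, Col1a1 read 217.8, 278 and 218.6 on EGFP-high replicates 1, 2 and 3 and 101.3, 209 and 202.3 on EGFP-negative replicates 1, 2 and 3, higher in EGFP-high without overlap, as Cxcl12 was (log2 0.49, SE 0.26, limma adjusted p = 0.397). The sum of 4 T cell markers was 119 to 256 in EGFP-high and 44.0 to 77.2 in EGFP-negative cells, that of 5 leukocyte markers 347 to 449.8 and 251 to 314, and neither overlapped. Both sums were higher in EGFP-high, as Cxcl12 was, while Cxcr4, known from leukocytes, was read at the control level. Of the T cell markers 0 of 4 passed the level filter. Cd3g, the brightest by mean log2 value, read 46.7, 62.8 and 65.3 on EGFP-high replicates 1, 2 and 3, all above the control 95th percentile, and 48.4, 6.1 and 16.7 on EGFP-negative replicates 1, 2 and 3, with overlap. Cd3e read 27.7, 28.7 and 135.4 on EGFP-high replicates 1, 2 and 3 and 19.5 to 21.7 on the EGFP-negative arrays. Of the leukocyte markers 2 were tested and 0 passed (limma; 2 at an unadjusted p under 0.05), namely Laptm5 (limma adjusted p = 0.283) and Cd52 (0.173). The Laptm5 probe set, 1 of 2, may share signal with related transcripts, and the other one had a log2 difference of 0.17 (limma adjusted p = 0.757). Without Laptm5 the leukocyte sums were 138.9, 113.8 and 183.5 on EGFP-high replicates 1, 2 and 3 and 132, 93.6 and 103.3 on EGFP-negative replicates 1, 2 and 3, and overlapped. Coro1a was lower in EGFP-high (14.4 to 18.1 against 19.3 to 69.8) and was under the level filter, and Ptprc, the defining leukocyte marker, exceeded the control 95th percentile only on EGFP-high replicate 3. The summed level of 5 pericyte and smooth muscle markers was 83.7 to 154.5 in EGFP-high and 154.6 to 204 in EGFP-negative cells, lower in EGFP-high as Ackr3 was although the nearest arrays of the groups all but touched. The markers were split in direction. In EGFP-high and EGFP-negative cells Acta2 averaged 7.5 and 37.6, Des 34.2 and 65.0, and Pdgfrb 11.2 and 16.2. Rgs5 (45.4 and 42.5) and Abcc9 (24.3 and 17.3) went the other way, and only Des did not overlap. Among the 5 markers, 0 of 1 tested passed (Des, the brightest, limma adjusted p = 0.181), and Pdgfrb did not exceed the control level on any array. For melanocytes, whose precursors are known for Cxcr4, the sum of 4 markers was 195.3 to 323.7 in EGFP-high and 205 to 247.8 in EGFP-negative cells, with overlap. The part of all these cells in the differences of Cxcl12, Cxcr4 and Ackr3 was not tested.

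**Figure D4:**
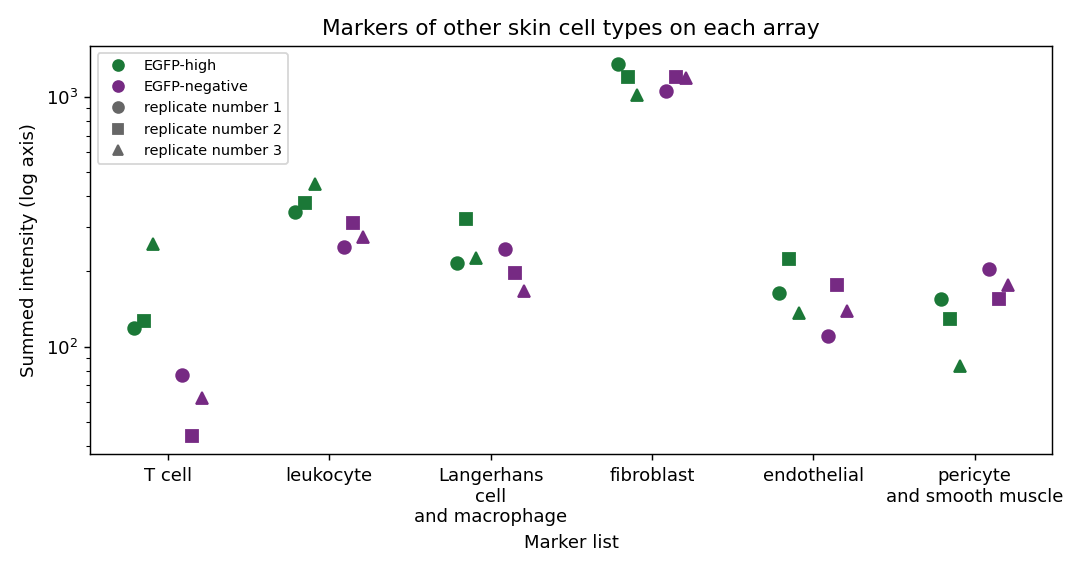
Summed intensity (log axis) of the marker genes of 6 other cell types on each array, with EGFP-high in green, EGFP-negative in purple and a symbol for each replicate number. The fibroblast and endothelial sums overlap between the groups, while the T cell sum is 119 to 256 in EGFP-high and 44.0 to 77.2 in EGFP-negative cells.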

How the data were processed

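The authors deposited 1 intensity per probe set on a linear scale for 12488 probe sets of an Affymetrix mouse array. Each array has a trimmed mean (2% off each end) of 150.06 to 150.08, and the software is not given in the sources used here. After 66 control probe sets were left out, values were taken as log2(value + 19.3), 19.3 being the 25th percentile of values above 0. Probe sets with a mean above the 40th percentile (7453, near an intensity of 44.5) were tested with limma 3.58.1 (R 4.3.3; lmFit, eBayes with trend, two-sided, Benjamini-Hochberg), and standard errors of the others come from a fit without this filter. The method was tested on simulated data with 200 changed probe sets. It found 48% of changes of log2 1 and 73% of those of log2 2, with 3 false calls. A gene that did not pass may therefore still differ. A gene was represented by its brightest probe set. Symbols come from the platform annotation, and 10817 of 10833 probe sets with 1 symbol were matched to RefSeq (GRCm38.p6). Upstream sequences are from RefSeq and matched all 3 genes.

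The members and lists were chosen with earlier results of these data known. Genes named were the members, list genes past the threshold, the brightest other ligand and receptor, the 5 nearest profiles and the label checks; others are marked in the text or are markers or list genes with a value that bears on a member. Equal replicate numbers in the titles deviated together (r = 0.336, 0.368 and 0.305 for numbers 1, 2 and 3, all above 0.1), so they were taken as pairs. The main fit has no replicate block, because the labels do not say what equal numbers share, and it leaves this pairing out. Its list counts and background shares are those of an unpaired fit. More probe sets passed with the block (382 higher and 396 lower, against 225 and 162), and blocked values are given where a call changed. The labels name no separate animals, so a p-value reflects variation between these 6 arrays, which may be technical, and their number limits the precision. Alternatives covered the pseudocount, scaling, filter, trend, block, averaging of probe sets and single arrays.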

Additional observations from a re-analysis of the deposited data

How the results depend on the processing

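The direction of Cxcl12, Ackr3 and Cxcr4 held on all 5 probe sets in all 12 alternatives run. For the 4 probe sets without overlap, leaving out arrays or changing the pseudocount could not reverse it. The block leaves the difference itself unchanged, so no support is drawn from the direction. The sizes of the low ones depend on the pseudocount: with it 4 times as large the log2 differences were 0.96 for 100112_at, 1.23 for 160511_at, 0.45 for 162234_f_at and 0.21 for Cxcr4, and with it 0.25 times as large 1.504 for 162234_f_at and 1.14 for Cxcr4. Over the fits without 1 array they ranged from 1.27 to 1.59 (100112_at), 1.64 to 2.19 (160511_at), 0.79 to 1.29 (162234_f_at), -2.43 to -1.81 (Ackr3) and 0.42 to 0.75 (Cxcr4). Ackr3 ranged from -2.46 to -1.69 over all 12.

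With the replicate block 382 probe sets were higher and 396 lower, against 225 and 162 without it. The block gave 1 chemokine ligand higher, 2 extracellular partners higher, and 2 regulators higher and 1 lower, and changed no other list count. Chemokine ligands higher came to 1 with the pseudocount 4 times as large, with quantile normalization, with probe sets averaged (each time Cxcl14) and with no filter (Ccl7, near the controls). Regulators higher came to 1 with the pseudocount 4 times as large, and extracellular partners higher to 2 with quantile normalization. Without 1 array the counts ranged from 106 to 265 (higher) and 85 to 234 (lower) over all probe sets; both were lowest without EGFP-high replicate 3, with 132 and 93 without EGFP-high replicate 2 and 97 lower without EGFP-negative replicate 3. They ranged from 0 to 1 for ligands higher (1 when EGFP-high replicate 1 was left out, and 1 when EGFP-negative replicate 2 was), 0 to 3 for extracellular partners higher (0 in the fit without EGFP-high replicate 3, and 3 in the fit without EGFP-high replicate 1), 0 to 1 for those lower, and 0 to 1 for regulators higher (1 without EGFP-negative replicate 3), and stayed at 0 for receptors and at 1 each way for signalling genes. Dropping number 1 in both groups, an alternative added once the data had been seen, gave 3 extracellular partners higher and 0 lower. The causes were not tested. Signal near the controls limits what can be read for Cxcr4, 162234_f_at and the EGFP-negative level of 160511_at.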

Other observations

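Of the 48 pathway genes under the level filter, 8 had groups that did not overlap (16.7%, where 18.4% of all probe sets did so), 4 higher and 4 lower in EGFP-high. The chemokine receptors Ccr2 (20.5 to 28.4 in EGFP-high and 4.2 to 12.1 in EGFP-negative cells) and Ccr7 (20.6 to 29.6 and 2.4 to 16.4) and the ligand Ccl7 (12 to 22.7 and 2.4 to 3.9) were higher, but did not exceed the control 95th percentile on any array. Those lower were the ligand Cxcl5 (13.4 to 26.2 and 27.3 to 41.4), the protease gene Ctsg (1.5 to 6.2 and 7.4 to 7.9), the receptor Calcrl (0.8 to 2.1 and 3.5 to 13.7) and the heparan sulfate enzyme Ndst2 (15.7 to 24.9 and 25 to 32.6), of which Cxcl5 exceeded that percentile on 1 array of each group and Ndst2 on 1 EGFP-negative array. Foxc1, a forkhead factor of the bulge that is known to act on Cxcl12 in bone marrow, read 40.7, 56.1 and 80.9 on EGFP-high replicates 1, 2 and 3 and 19.5, 31.2 and 25.4 on EGFP-negative replicates 1, 2 and 3, higher in EGFP-high and above the control 95th percentile on 2 EGFP-high arrays and on none of the EGFP-negative arrays.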
